A study of Mus musculus with 30 samples.

Results

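The genes Cyp2b9, Cyp2b10, Cyp2b13, Cyp2a4, Cyp2a5, Cyp2a12, Cyp2a22 and Cyp2g1 form a cluster of cytochrome P450 genes on mouse chromosome 7. They were taken from the count table by symbol, 8 of the 17990 genes listed there, and the rule that names them uses no measured value. The samples are livers of ICR mice, an outbred stock, taken at an age of 10 weeks in 10 groups of 3 libraries, 5 groups of females and 5 of males. Their mothers, 8 dams per group, drank water with 2,4-BPS, BPSIP, BPS or E2 at 10 ng/mL, meant to give 5 µg/kg a day, from early pregnancy to weaning (about 40 days). All drinking water held 0.001% ethanol, which was the only addition for control dams, and no dosing of the offspring themselves is named. BPS is bisphenol S, a pair of phenol rings joined by a sulfone. In 2,4-BPS the hydroxyl group of 1 ring is in another position, in BPSIP the hydroxyl group of 1 ring carries an isopropyl ether, and E2 is estradiol, the reference oestrogen. The offspring of a group were drawn from litters of different dams, and the litter of each library is not given here. The p values rest on how much the 3 livers of each group varied, over all groups of a fit. In that fit, other genes also inform the spread of each gene. Libraries held 29711711 to 37719069 counts.

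Cytochrome P450 enzymes insert oxygen into drugs, steroids and fatty acids, with electrons supplied by the reductase Por. Hepatocytes express the Cyp2b and Cyp2a enzymes, and the nuclear receptors CAR (gene Nr1i3) and PXR (Nr1i2) are the best known activators of the inducible members. Several of the genes are also sex-biased in mouse liver, where the pattern of growth hormone release keeps some of them low in adult males. Cyp2a5 encodes the coumarin hydroxylase of mouse liver, and Cyp2a4, its near copy, a steroid hydroxylase. Cyp2b10 is the classical CAR target, Cyp2b9 and Cyp2b13 are female-predominant genes of the same subfamily, and Cyp2g1 is best known from the olfactory mucosa.

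The order along chromosome 7 is Cyp2b10, Cyp2b13, Cyp2b9, Cyp2a4, Cyp2g1, Cyp2a5, Cyp2a22 and Cyp2a12. RefSeq promoter windows (GRCm38.p6, 250 bases before to 50 after the start) were matched by symbol for 7 of the 8 genes, all but Cyp2g1. The windows of Cyp2a4 and Cyp2a5 were the same at 294 of 299 aligned bases, and those of Cyp2b9 and Cyp2b13 at 298 of 300 bases. Both pairs are shown because Cyp2a4 and Cyp2a5 differed widely in level in exposed males while Cyp2b9 and Cyp2b13 were both near 0 there. Each sequence is the 250 bases before the start, 5′ to 3′ on the plus strand, with the bases that differ within a pair in capitals.
Cyp2a4 (chr7:26306942-26307191): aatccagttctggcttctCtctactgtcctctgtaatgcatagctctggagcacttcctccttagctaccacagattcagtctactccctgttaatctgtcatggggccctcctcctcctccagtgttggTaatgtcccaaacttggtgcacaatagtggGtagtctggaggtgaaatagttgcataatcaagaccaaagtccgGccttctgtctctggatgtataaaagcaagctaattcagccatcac
Cyp2a5 (chr7:26835089-26835338): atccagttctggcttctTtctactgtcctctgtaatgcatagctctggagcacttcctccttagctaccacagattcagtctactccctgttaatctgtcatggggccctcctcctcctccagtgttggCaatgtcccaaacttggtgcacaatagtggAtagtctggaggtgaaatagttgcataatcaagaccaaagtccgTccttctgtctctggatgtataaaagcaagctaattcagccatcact
Cyp2b9 (chr7:26173159-26173408): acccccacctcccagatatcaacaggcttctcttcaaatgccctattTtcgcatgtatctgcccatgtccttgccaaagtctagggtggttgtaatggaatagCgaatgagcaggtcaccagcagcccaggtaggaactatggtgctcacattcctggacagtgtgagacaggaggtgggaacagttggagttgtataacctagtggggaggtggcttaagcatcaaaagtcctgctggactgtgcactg
Cyp2b13 (chr7:26061245-26061494): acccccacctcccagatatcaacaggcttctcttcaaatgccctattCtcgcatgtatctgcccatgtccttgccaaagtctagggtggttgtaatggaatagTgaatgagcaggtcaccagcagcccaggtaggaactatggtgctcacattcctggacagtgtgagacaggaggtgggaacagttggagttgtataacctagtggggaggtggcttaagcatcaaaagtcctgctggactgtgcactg
Counted from the 5′ end of the first gene of a pair, the differences before the start were C19T, T131C, G161A and G205T from Cyp2a4 to Cyp2a5, and T48C and C104T from Cyp2b9 to Cyp2b13. Another difference of the first pair, T270C, lies after the start.

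Motifs were picked after the sequences had been seen and were searched on both strands of the windows of 300 bases. The C/EBP motif TTGCNNAA, bound by a family of liver bZIP factors, matched once in Cyp2b9, Cyp2b10, Cyp2b13, Cyp2a4 and Cyp2a5 and not in Cyp2a12 or Cyp2a22. Of 27025 promoters of the same length, 10.8% held it. Its letters were TTGCATAA in Cyp2a4, Cyp2a5 and Cyp2b10, and TTGCCAAA in Cyp2b9 and Cyp2b13. The nuclear receptor motif AGGTCA (16.04% of promoters) matched before the start in Cyp2b9 and Cyp2b13, from base 113 of the window. In Cyp2a4 and Cyp2a5 it matched only after the start, from bases 281 and 280, outside the sequences printed above. TATAAA (14.2%) matched in the 4 Cyp2a windows and in none of the 3 Cyp2b windows. The letters TTCNNNGAA, used for STAT5 (8.47%), occurred in none of the 7.

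Reads may be shared between look-alike genes, and the sources used here state neither the read length nor how shared reads were counted. In GENCODE M21 transcripts, compared among 79 Cyp2 genes, windows of 50 bases found in another of these genes made up 38.0% of Cyp2a4, 40.8% of Cyp2a5, 27.5% of Cyp2a12, 25.7% of Cyp2a22, 20.04% of Cyp2b13, 10.8% of Cyp2b9 and 8.57% of Cyp2b10, and Cyp2g1 had none. With windows of 100 bases the highest shares were 14.4% for Cyp2a5 and 11.2% for Cyp2a4. In males exposed to 2,4-BPS, Cyp2a5 had 43996 counts and Cyp2a4 had 184, or 0.418% of them. Cyp2a12 had 37918 counts in the same group and Cyp2a22 had 50, or 0.132% of them. Reads of the neighbour counted under Cyp2a4 or Cyp2a22 could not exceed those shares in that group, while the few counts of such low members may be reads of a neighbour.

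The libraries labelled male control went against their label in part. Summed over Ddx3y, Eif2s3y, Kdm5d and Uty, which are on the Y chromosome, levels stayed within 0.543 CPM (counts scaled to library size) in the 15 female libraries and lay at 131 to 169 CPM in the 12 exposed male libraries. The same sum was 84.7 to 95.3 CPM in the 3 labelled male control, below every exposed male library. The levels of A1bg, which mouse liver expresses in females, were 1408, 1368 and 1622 CPM in these 3 libraries, between 0.811 and 4.57 CPM in exposed males and 2544 ± 40.9 CPM in female controls (mean ± SD, n = 3, as in what follows). The 22 male-biased liver genes, by contrast, summed to 19226 to 22495 CPM in these 3 libraries, within the range of exposed males (17464 to 27845 CPM) and above that of female controls (2444 to 2572 CPM). What sets these 3 libraries apart cannot be told apart from the group itself. Results in males are therefore given first among the 4 exposed groups, and those against the libraries labelled male control come after them. Of the 10 hepatocyte markers, 9 were in the table, none was at 0 in any group, and they summed to 81805 CPM or more in every library. In bulk liver, fewer cells of a type and less RNA per cell cannot be told apart.

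On the scale per length (FPKM, fragments scaled to transcript length and library size), Cyp2a4 (823) and Cyp2a5 (653) had the highest mean levels of the 8 genes in control females. Cyp2b9 followed with 284 and Cyp2a12 with 217 FPKM. Cyp2a22 (78.2), Cyp2b13 (57.8), Cyp2b10 (15.4) and Cyp2g1 (10.5 FPKM) were lower. In males exposed to 2,4-BPS, Cyp2a5 (256) and Cyp2a12 (227 FPKM) led, and in males exposed to BPSIP, BPS or E2 Cyp2a12 led with 84.1, 120.1 and 89.9 FPKM. Levels from here on are CPM, which compare libraries for 1 gene and not genes with each other.

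**Figure D1:**
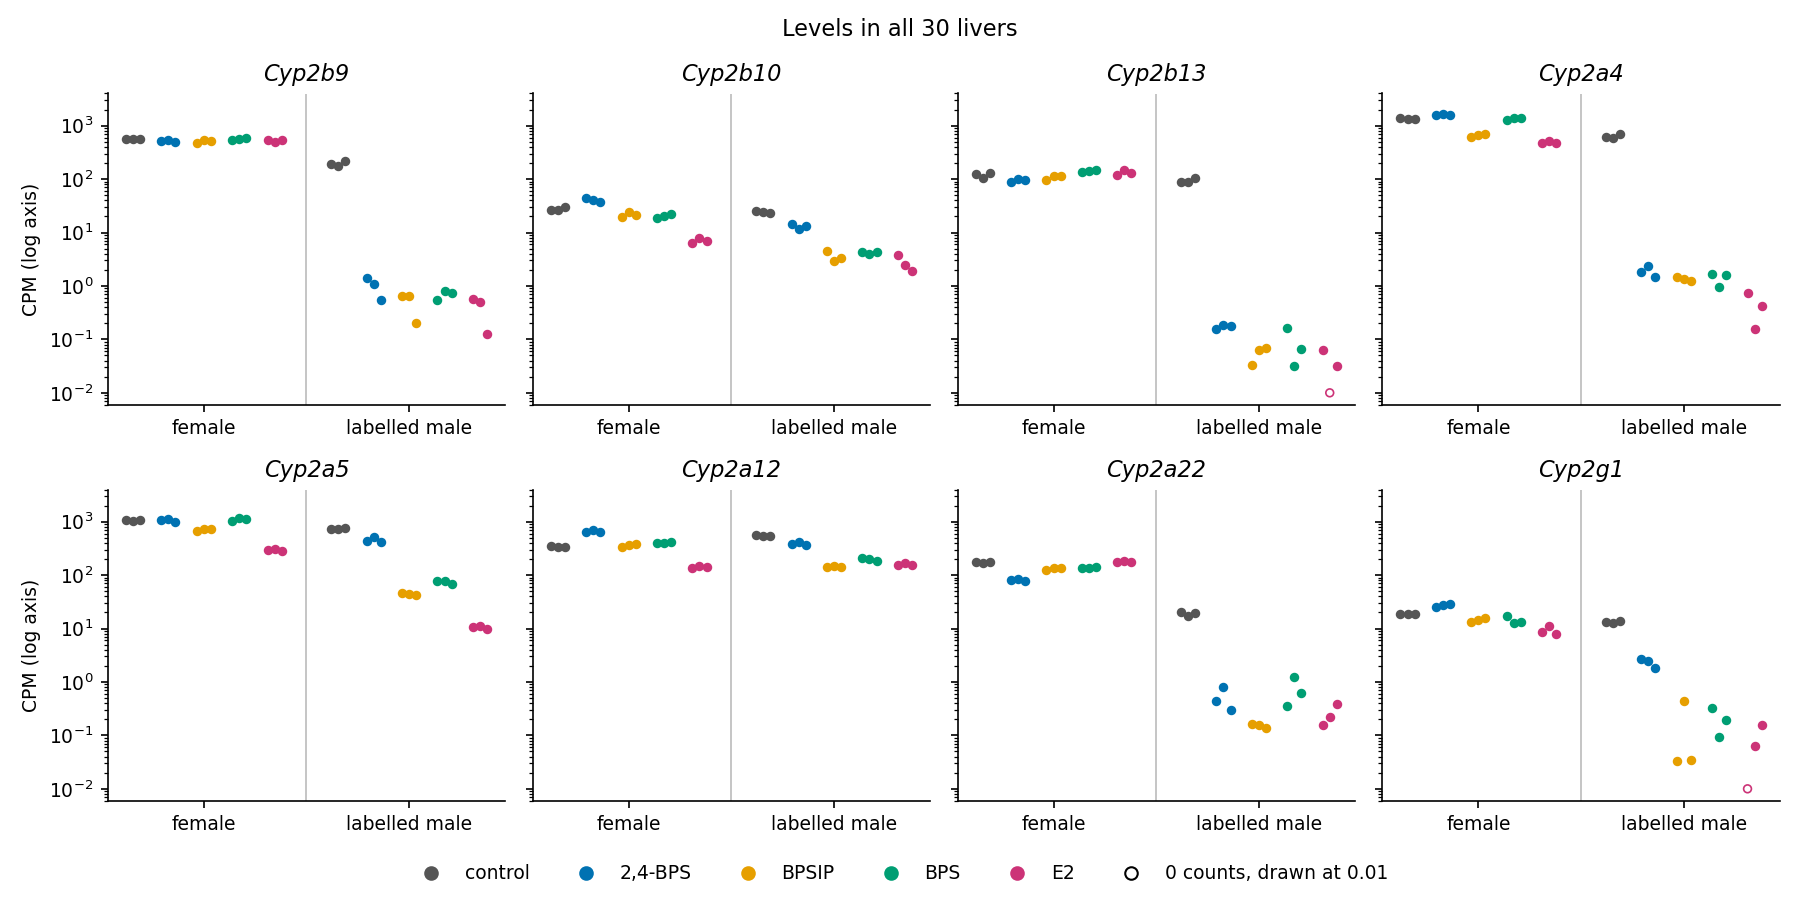
Level of each of the 8 genes in all 30 libraries, in CPM on a log axis. Each point is 1 library, colours give the exposure, females stand on the left and libraries labelled male on the right of each panel, and open circles mark libraries with 0 counts, drawn at 0.01 CPM. Cyp2b9, Cyp2b13, Cyp2a4 and Cyp2a22 stood at no more than 2.33 CPM in exposed males. Among exposed males, all libraries of 2,4-BPS lay above all others for Cyp2a5, Cyp2a12, Cyp2b10 and Cyp2g1, the last at 2.63 CPM or less.

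In females the cluster did not move as a block. Against control, 4 of the 8 genes were higher and 2 lower after 2,4-BPS (10.9% and 8.42% of all tested genes were higher and lower), and none was higher and 5 were lower after BPSIP (19.4% and 19.2%). After BPS 2 were higher and 3 lower (9.32% and 7.50%), and after E2 none was higher and 5 were lower (10.4% and 10.6%). Over the 8 genes the median log2 fold change was 0.13 for 2,4-BPS, −0.36 for BPSIP, 0.01 for BPS and −1.14 for E2, beside medians between −0.01 and 0.00 over all genes tested. These 4 comparisons share the same control libraries. A gene was called at an adjusted p under 0.05 in edgeR's quasi-likelihood test with Benjamini-Hochberg adjustment over all tested genes, and every adjusted p and log2 fold change ± standard error comes from that test unless another is named.

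Cyp2a5 was lowest in females exposed to E2. It stood at 1093, 1038 and 1066 CPM in control females, at 295, 308 and 288 after E2, and at 678, 724 and 714 CPM after BPSIP. All E2 libraries lay below all BPSIP libraries, and these below all control libraries. The log2 fold change was −1.85 ± 0.06 for E2 (adjusted p = 2.95e-24) and −0.60 ± 0.06 for BPSIP (adjusted p = 4.36e-11). After 2,4-BPS the libraries had 1073, 1121 and 998 CPM and after BPS 1012, 1175 and 1104 CPM, both overlapping the controls (adjusted p = 0.975 and 0.602).

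Cyp2a4, whose promoter window differs from that of Cyp2a5 at 5 bases, was low in the same groups but also rose after 2,4-BPS. Control females had 1381, 1322 and 1326 CPM and females exposed to 2,4-BPS had 1597, 1656 and 1571 CPM, with no overlap (log2 fold change 0.27 ± 0.06, adjusted p = 0.000473). The libraries had 610.2, 661 and 698 CPM after BPSIP (−1.03 ± 0.06, adjusted p = 2.1e-17) and 476, 522 and 472 CPM after E2 (−1.46 ± 0.06, adjusted p = 2.56e-21). After BPS they had 1249.9, 1371 and 1402 CPM (adjusted p = 0.952), overlapping the controls. The ratio of Cyp2a4 to Cyp2a5 on the FPKM scale was 1.26 ± 0.0151 in control females, 1.51 ± 0.0531 after 2,4-BPS, 0.930 ± 0.0415 after BPSIP, 1.22 ± 0.0526 after BPS and 1.65 ± 0.0428 after E2. This ratio was above the controls in all libraries of 2,4-BPS and E2 and below them in all libraries of BPSIP.

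Cyp2a12 and Cyp2a22, neighbours whose promoter windows were 90.3% identical, moved in opposite directions after 2,4-BPS. Cyp2a12 stood at 353, 338 and 340.0 CPM in control females and at 648, 698 and 639.9 CPM after 2,4-BPS, the highest of the 10 groups (0.95 ± 0.05, adjusted p = 2e-16). Cyp2a22 stood at 176, 172 and 174 CPM in control females and at 79.7, 85.0 and 76.2 CPM after 2,4-BPS, the lowest of the female groups (−1.11 ± 0.06, adjusted p = 8.15e-18). For neither gene did the 2,4-BPS libraries overlap the controls. After E2, Cyp2a12 stood at 138, 151 and 139 CPM (−1.27 ± 0.05, adjusted p = 3.75e-20), while Cyp2a22 stood at 179, 184 and 175 CPM, overlapping the controls (adjusted p = 0.692). On the FPKM scale the ratio of Cyp2a12 to Cyp2a22 was 2.77 ± 0.0402 in control females, 11.6 ± 0.189 after 2,4-BPS, 3.89 ± 0.113 after BPSIP, 4.11 ± 0.0708 after BPS and 1.12 ± 0.0339 after E2. Cyp2a22 fell after both BPSIP (−0.41 ± 0.05, adjusted p = 1.34e-07) and BPS (−0.33 ± 0.05, adjusted p = 2.69e-05). Cyp2a12 rose after BPS to 404 ± 11.01 CPM (0.24 ± 0.05, adjusted p = 0.00109) and had 364 ± 21.1 CPM after BPSIP (adjusted p = 0.246).

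Cyp2b10, the CAR target, rose after 2,4-BPS and fell after the other 3 exposures. Control females had 26.5, 26.3 and 29.9 CPM, and females exposed to 2,4-BPS had 43.5, 41.1 and 37.2 CPM (0.56 ± 0.09, adjusted p = 1.57e-05). After E2 the libraries had 6.28, 8.06 and 6.82 CPM, the lowest of the female groups (−1.97 ± 0.10, adjusted p = 1.99e-17). They had 19.6, 24.2 and 21.1 CPM after BPSIP (−0.35 ± 0.09, adjusted p = 0.0028) and 18.8, 20.3 and 22.7 CPM after BPS (−0.41 ± 0.10, adjusted p = 0.00177). None of the 4 exposed groups overlapped the controls, while BPSIP and BPS overlapped each other.

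Cyp2b9 was nearly level across the female groups. Its means lay between 513 CPM after 2,4-BPS and 565 CPM after BPS, with 563 ± 4.66 CPM in controls, and no exposure was called against control (adjusted p between 0.0571 and 0.901). The joint test of any difference among the 4 exposures gave Cyp2b9 an adjusted p of 0.0606. The differences for 2,4-BPS (−0.13 ± 0.05) and BPSIP (−0.13 ± 0.05) passed in fits of the 2 groups alone (adjusted p = 0.0197 and 0.0273). Cyp2b13 moved little. It stood at 119 ± 13.6 CPM in controls, 95.8 ± 5.06 after 2,4-BPS (−0.30 ± 0.08, adjusted p = 0.0122) and 143 ± 7.74 CPM after BPS (0.28 ± 0.08, adjusted p = 0.0242). Neither of these groups overlapped the controls. The first call was lost without replicate 1 of 2,4-BPS (adjusted p = 0.0665) or replicate 3 of control (0.0712), and the second without replicate 2 or 3 of BPS (0.0704 and 0.103) or replicate 2 of control (0.126). After BPSIP and E2 it had 109 ± 10.7 and 131 ± 13.7 CPM (adjusted p = 0.253 and 0.287).

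Cyp2g1 was low in liver and, like Cyp2b10, rose after 2,4-BPS and fell after the other 3 exposures. Control females had 18.6, 18.4 and 18.4 CPM, females exposed to 2,4-BPS 24.9, 27.8 and 28.2 CPM (0.55 ± 0.11, adjusted p = 0.000265) and females exposed to E2 8.55, 11.1 and 7.97 CPM (−1.01 ± 0.12, adjusted p = 1.54e-08). The 2,4-BPS libraries lay above and the E2 libraries below all controls. BPSIP (13.2, 14.5 and 15.6 CPM, adjusted p = 0.0106) and BPS (17.4, 12.6 and 13.0 CPM, adjusted p = 0.0279) lay below the controls too. The BPSIP call was lost without replicate 1 of BPSIP (adjusted p = 0.0627), and the BPS call without replicate 2 or 3 of BPS (0.178 and 0.149) or any 1 of the controls (0.0687 to 0.0776). Both were lost in the fit of 30 libraries (0.0906 and 0.147).

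**Figure D2:**
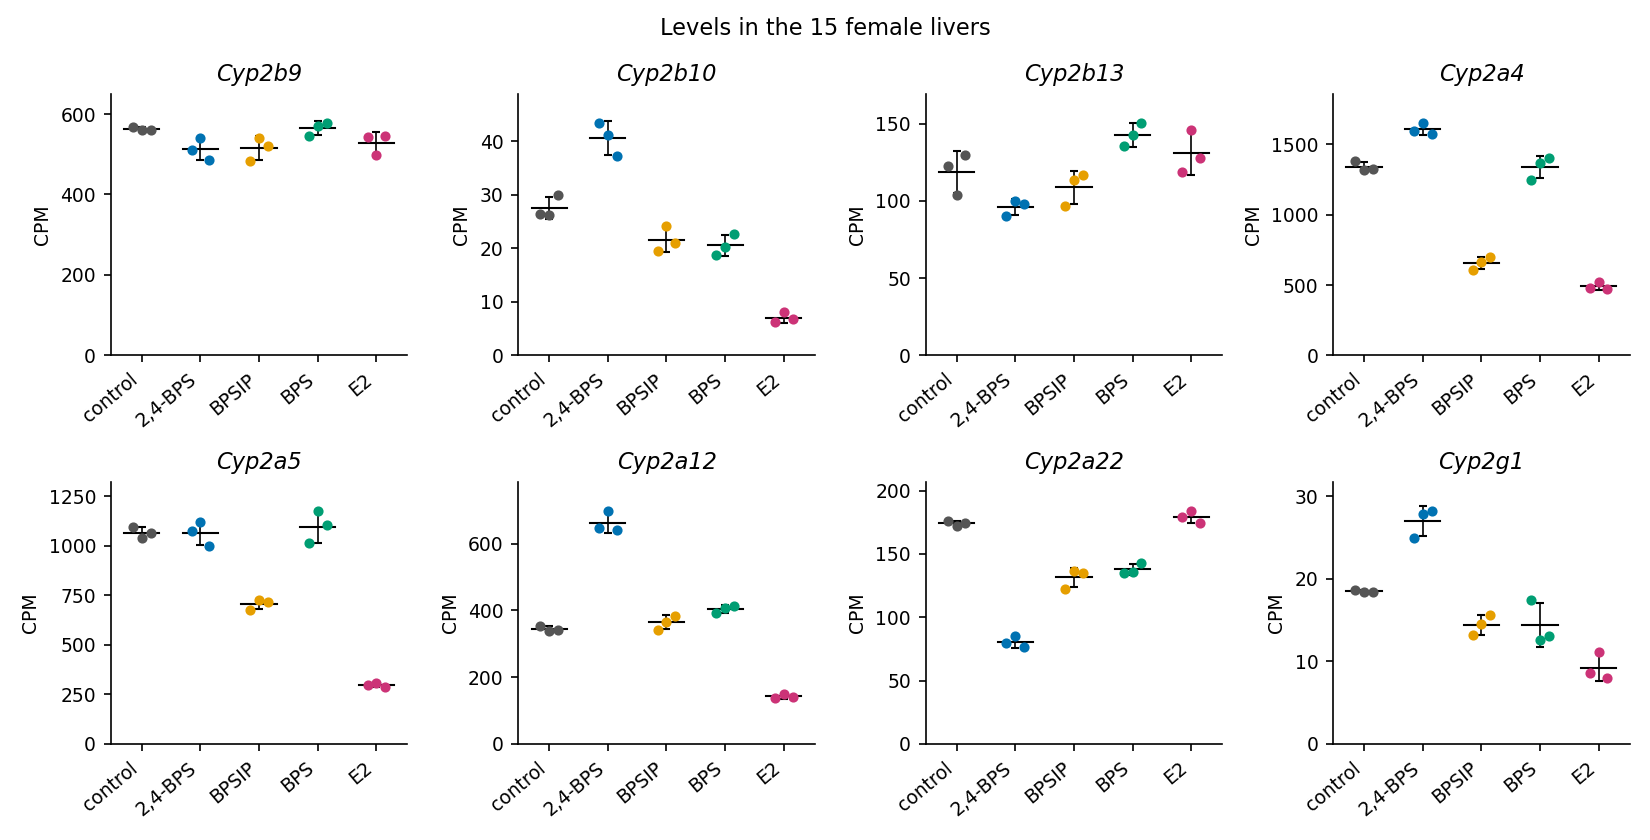
Level of each gene in the 15 female libraries, in CPM on linear axes that start at 0. Points are libraries, horizontal lines are group means and bars are the SD of 3 libraries. Cyp2a4, Cyp2a5, Cyp2a12, Cyp2b10 and Cyp2g1 were lowest after E2, Cyp2a12 was highest and Cyp2a22 lowest after 2,4-BPS, and Cyp2b9 lay between 483 and 579 CPM.

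**Figure D3:**
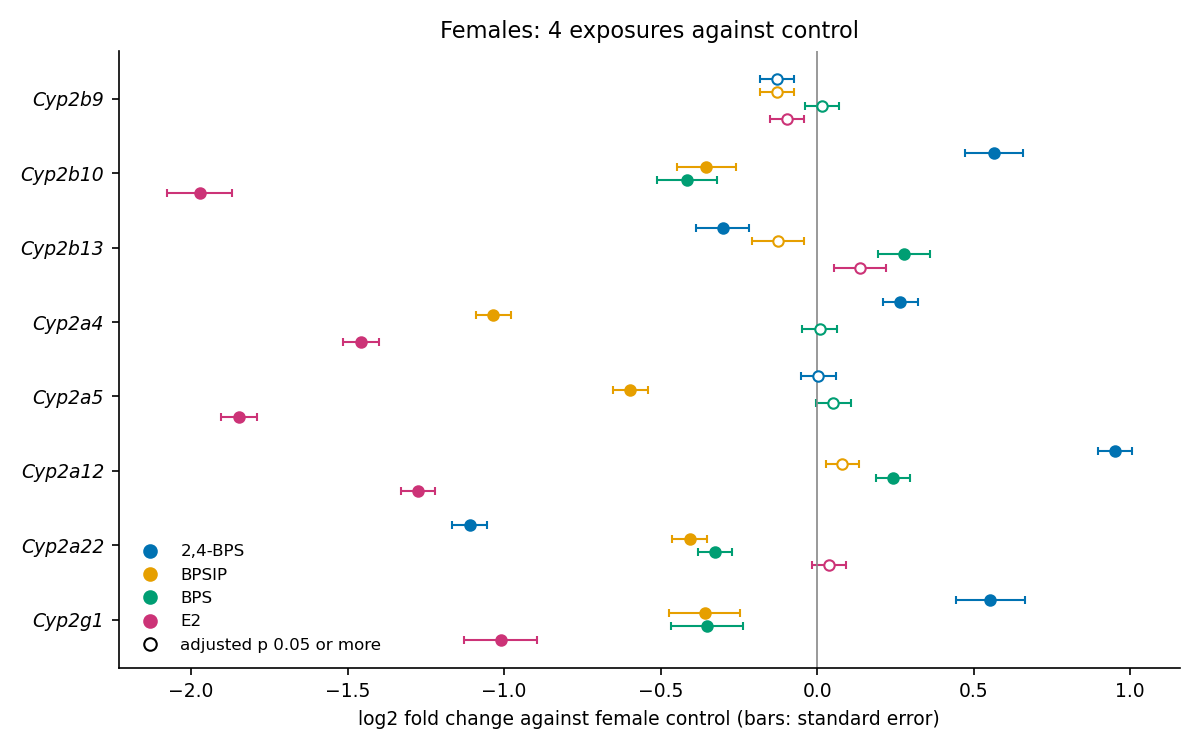
Log2 fold change of each gene against control in females, by exposure. Points are estimates of edgeR, bars their standard errors, and open points have an adjusted p of 0.05 or more. The estimates ran from −1.97 (Cyp2b10 after E2) to 0.95 (Cyp2a12 after 2,4-BPS).

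The 4 exposures were compared with each other at the same dose, age and duration, in 6 pairs per sex. In females 37 of 48 tests of the 8 genes were called, and 38 when p values were adjusted over all genes and the 6 pairs together. The isomers 2,4-BPS and BPS, which differ in the position of 1 hydroxyl group, differed in 6 of the 8 genes. Cyp2b10 (0.98 ± 0.09), Cyp2g1 (0.90 ± 0.11), Cyp2a12 (0.71 ± 0.05) and Cyp2a4 (0.26 ± 0.06) were higher after 2,4-BPS, and Cyp2a22 (−0.78 ± 0.06) and Cyp2b13 (−0.58 ± 0.08) were lower, with adjusted p from 1.81e-13 to 0.000744 (10.2% and 9.23% of all genes were higher and lower). Cyp2a5 had a difference of −0.05 with a 95% interval from −0.16 to 0.06, and Cyp2b9 of −0.14 with an interval, itself not adjusted, from −0.25 to −0.03 (adjusted p = 0.0595, and 0.041 when adjusted over the 6 pairs together).

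BPSIP and BPS, which differ in the isopropyl ether, differed in 5 of the 8 genes, all lower after BPSIP (19.2% and 20.1% of all genes were higher and lower). Cyp2a4 (−1.04 ± 0.06), Cyp2a5 (−0.65 ± 0.06) and Cyp2b13 (−0.40 ± 0.08) differed most. The smaller differences of Cyp2a12 (−0.16 ± 0.05, adjusted p = 0.0144) and Cyp2b9 (−0.14 ± 0.05, adjusted p = 0.0326) were lost without replicate 1 of BPSIP (0.102 and 0.18) and without replicate 3 of BPS (0.0625 and 0.112). That of Cyp2b9 was also lost without replicate 3 of BPSIP (0.0541), without replicate 2 of BPS (0.0991) and in the fit of 30 libraries (0.303). No difference was called for Cyp2b10 (0.06, interval −0.14 to 0.26), Cyp2g1 (−0.01, −0.24 to 0.23) or Cyp2a22 (−0.08, −0.19 to 0.03). Between 2,4-BPS and BPSIP, 5 genes were higher after 2,4-BPS and Cyp2a22 was lower (18.3% and 17.3% of all genes), with Cyp2a4 farthest apart (1.30 ± 0.06, adjusted p = 4.71e-20).

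E2 differed from each bisphenol in the same 5 genes, Cyp2a4, Cyp2a5, Cyp2a12, Cyp2b10 and Cyp2g1, all lower after E2. Against 2,4-BPS the differences of these 5 ran from 1.56 ± 0.12 for Cyp2g1 to 2.54 ± 0.10 for Cyp2b10, and Cyp2a22 and Cyp2b13 were higher after E2 (16.1% and 13.7% of all genes were higher and lower after 2,4-BPS). Against BPS they ran from 0.66 ± 0.12 for Cyp2g1 to 1.90 ± 0.06 for Cyp2a5, and Cyp2a22 was higher after E2 (13.4% and 12.2%). Against BPSIP they ran from 0.42 ± 0.06 for Cyp2a4 to 1.62 ± 0.10 for Cyp2b10, and Cyp2a22 and Cyp2b13 were higher after E2 (19.7% and 18.6%). The latter was lost without replicate 1 of BPSIP (adjusted p = 0.0855) or replicate 2 of E2 (0.11). Cyp2b9 was not called in any of these 3 pairs, with 95% intervals between −0.14 and 0.22.

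In exposed males the genes fell into those that were still well measured and those that were close to 0. Cyp2a5 spanned the widest range of the well measured ones. It stood at 426, 511 and 411 CPM after 2,4-BPS and at 77.0, 77.7 and 69.02 CPM after BPS. After BPSIP it stood at 45.3, 43.4 and 43.3 CPM and after E2 at 10.8, 11.2 and 9.77 CPM, and no group overlapped another. The log2 difference between 2,4-BPS and E2 was 5.40 ± 0.08 (adjusted p = 2.22e-28), that between 2,4-BPS and BPS 2.61 ± 0.06 (adjusted p = 1.52e-22) and that between BPSIP and BPS −0.74 ± 0.06 (adjusted p = 2.76e-10). Its near copy Cyp2a4 had only 184, 124, 133 and 41 counts over the 3 libraries of 2,4-BPS, BPSIP, BPS and E2 each, or at most 2.33 CPM in any library. Cyp2a4 was lower after E2 than after 2,4-BPS (2.10 ± 0.39, adjusted p = 0.00163), BPS (1.68 ± 0.42, adjusted p = 0.00778) and BPSIP (1.63 ± 0.42, adjusted p = 0.0143). These few counts of Cyp2a4 may be reads of Cyp2a5, whose part in the differences was not tested.

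Cyp2a12 and Cyp2b10 were also highest after 2,4-BPS among exposed males. Cyp2a12 had 376, 421 and 365 CPM after 2,4-BPS and 208, 199 and 183 CPM after BPS. It had 152, 167 and 152 CPM after E2 and 142, 147 and 139.8 CPM after BPSIP, with no overlap between any 2 of these groups. The level after 2,4-BPS exceeded that after BPS by 0.997 ± 0.05, that after E2 by 1.29 ± 0.05 and that after BPSIP by 1.43 ± 0.05 on the log2 scale (adjusted p at most 3.15e-26). The difference between BPSIP and E2 (−0.14 ± 0.05, adjusted p = 0.0254) was lost without replicate 1 or 3 of BPSIP (0.0915 and 0.0884), without replicate 2 of E2 (0.278) and in the fit of 30 libraries (0.0591). Cyp2b10 had 14.2, 11.8 and 13.3 CPM after 2,4-BPS and 4.28, 4.01 and 4.35 CPM after BPS. It had 4.53, 2.98 and 3.36 CPM after BPSIP and 3.84, 2.46 and 1.88 CPM after E2. The 2,4-BPS libraries lay above all others, and BPSIP overlapped BPS and E2. Cyp2b10 was higher after BPS than after E2 (0.60 ± 0.18, adjusted p = 0.0051), not without replicate 3 of E2 (0.0891).

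Cyp2g1 had 2.63, 2.42 and 1.82 CPM after 2,4-BPS. It had at most 0.439 CPM in the other exposed males, with 19 counts over the 3 libraries after BPS, 16 after BPSIP and 7 after E2. The 2,4-BPS group was higher than BPS (3.49 ± 0.45, adjusted p = 2.13e-07), BPSIP (3.69 ± 0.46, adjusted p = 1e-07) and E2 (4.88 ± 0.53, adjusted p = 9.33e-09). Cyp2b9 had 98 counts after 2,4-BPS, 66 after BPS, 47 after BPSIP and 38 after E2 over 3 libraries, and no pair was called for it (adjusted p between 0.0677 and 0.738). Its difference between 2,4-BPS and E2 (1.31 ± 0.49) passed in DESeq2 (adjusted p = 0.0276) and without replicate 3 of 2,4-BPS (0.00315). Cyp2b13 had 17, 8, 5 and 3 counts in the same order. Its level after 2,4-BPS was 5.50 times that after E2 (95% counting interval 1.59 to 29.3), and 3.19 times that after BPSIP (1.13 to 11.05). These exact binomial intervals cover counting error only. Cyp2a22 had 50 counts after 2,4-BPS, 70 after BPS, 14 after BPSIP and 24 after E2. It was lower after BPSIP than after BPS (−2.24 ± 0.44, adjusted p = 3.88e-05). Its excess after BPS over E2 (adjusted p = 0.00154) was lost in the fit of the 12 exposed male libraries (0.0739) and without replicate 2 of BPS (0.101), which had 1.25 CPM beside 0.354 and 0.617 in the other two.

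**Figure D4:**
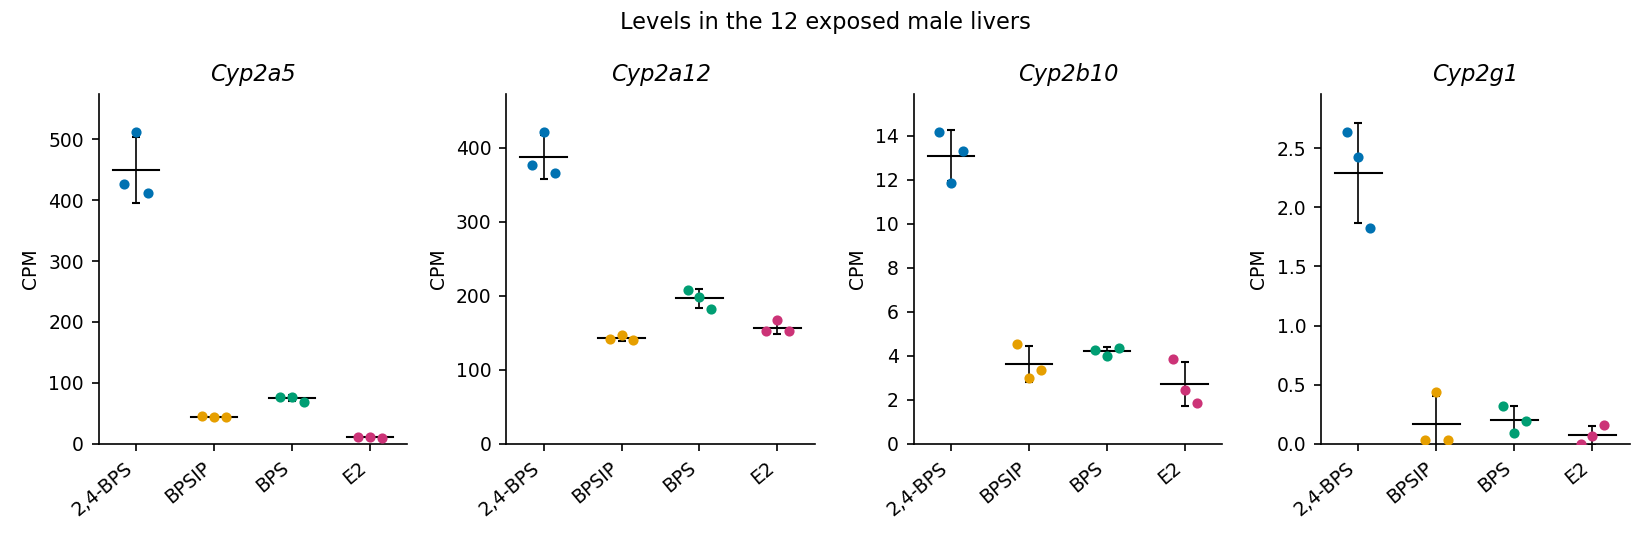
Levels of Cyp2a5, Cyp2a12, Cyp2b10 and Cyp2g1 in the 12 exposed male libraries, in CPM on linear axes that start at 0. Points are libraries, lines are means and bars the SD of 3 libraries. In each panel the 3 libraries of 2,4-BPS lie above all others, for Cyp2a5 at 411 to 511 CPM.

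Cyp2b13 was tested in males only because the libraries labelled male control, where it is high, carried it past the filter on low counts, so its calls among exposed males are values and not support. Over the 6 pairs of exposed male groups, 27 of 48 tests of the 8 genes were called, and 27 also when adjusted over all genes and the 6 pairs together. For 2,4-BPS, 6 genes, Cyp2b13 among them, were higher than after BPSIP (15.8% and 15.5% of all genes were higher and lower), 4 higher than after BPS (15.2% and 12.3%) and 6, again with Cyp2b13, higher than after E2 (13.6% and 14.9%), and none was lower. Of these calls, Cyp2b13 against BPSIP was close to the threshold (adjusted p = 0.0478) and was lost when any 1 library of the pair was left out (0.0643 to 0.146), in DESeq2 (0.0689) and in the fit of 30 libraries (0.107). Cyp2a22 against BPSIP was lost without replicate 2 of 2,4-BPS (0.0676) and in the fit of the 12 exposed male libraries (0.0685), and Cyp2b13 against E2 without replicate 2 of E2 (0.0724). BPSIP was lower than BPS in 3 genes and higher in none (18.6% and 16.8%). Of the pairs with E2, Cyp2a4 and Cyp2a5 were higher and Cyp2a12 lower after BPSIP (12.4% and 14.1%), and 5 were higher after BPS (17.0% and 20.5%). Between the isomers 2,4-BPS and BPS no difference was called for Cyp2a4 (0.42, interval −0.24 to 1.08), Cyp2a22 (−0.52, −1.22 to 0.18), Cyp2b9 (0.52, −0.42 to 1.46) or Cyp2b13 (1.01, −0.14 to 2.15). Between BPSIP and BPS none was called for Cyp2b10 (−0.20, −0.54 to 0.15) or for Cyp2a4, Cyp2b9, Cyp2b13 and Cyp2g1, whose intervals reached from −2.10 to 1.14. The missing calls do not show equal levels, since each of these intervals holds differences of either sign.

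Each exposed male group was also set against the mean of the other 3. After 2,4-BPS 6 genes, Cyp2b13 among them, were higher and none lower (13.5% and 12.3% of all genes), with Cyp2g1 (4.02 ± 0.34) and Cyp2a5 (3.78 ± 0.05) farthest out. The call of Cyp2a4 (0.998 ± 0.26, adjusted p = 0.0151) was lost without replicate 1 or 2 of 2,4-BPS (0.0534 and 0.0917). After E2 5 were lower and none higher (17.3% and 14.2%), with Cyp2a5 (−3.41 ± 0.07) and Cyp2g1 (−2.48 ± 0.61) farthest out. After BPSIP Cyp2a22, Cyp2a5, Cyp2a12 and Cyp2b10 were lower and none higher (15.9% and 15.4%). After BPS Cyp2a22 (1.42 ± 0.31) and Cyp2a5 (0.31 ± 0.05) were higher (16.9% and 18.9%), Cyp2a22 not without replicate 2 of BPS (adjusted p = 0.0827). The joint test of any difference among the 4 groups called 7 of the 8 genes in males, all but Cyp2b9 and with Cyp2b13 among the 7, and the same 7 in females (54.7% and 56.4% of all genes). Cyp2b13 passed the filter in males only through the libraries labelled male control, so its calls in males are values and not support.

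All 8 genes were lower in every exposed male group than in the libraries labelled male control, the group that went against its label in part (18.9% and 19.4% of all genes were higher and lower for 2,4-BPS, 17.4% and 17.4% for BPSIP, 20.6% and 22.7% for BPS and 17.2% and 16.4% for E2). Cyp2b13 passed the filter on low counts in males only through those 3 libraries, where it had 87.1 to 104 CPM, so these counts are a description. Cyp2a12 and Cyp2a5 stood at 553 ± 12.5 and 737 ± 15.99 CPM there, against 387 ± 29.3 and 449.6 ± 53.8 CPM after 2,4-BPS (−0.51 ± 0.05 and −0.71 ± 0.06). Cyp2b10 stood at 23.9 ± 1.05 against 13.1 ± 1.17 CPM (−0.86 ± 0.14). Cyp2a4, Cyp2b9 and Cyp2a22 had 637 ± 53.0, 195 ± 19.2 and 18.8 ± 1.49 CPM in the libraries labelled male control and no more than 2.33 CPM in any exposed male library. Beside them, 24 or 25 of 25 listed female-biased liver genes were lower in each exposed male group. Their summed level was 4496 to 5246 CPM in the libraries labelled male control against 83.5 to 170.2 CPM in exposed males. All 4 Y-linked genes were higher in each exposed group, and of the 22 male-biased genes 16 were higher and 2 lower after 2,4-BPS, 13 and 4 after BPSIP, 14 and 2 after BPS, and 12 and 5 after E2. Kupffer cell and macrophage markers summed to 1131 to 1202 CPM in the libraries labelled male control and to 629 to 850.4 CPM in exposed males, and hepatocyte markers to 131916 to 137294 and 81805 to 110311 CPM. The part of these lists in the differences of the 8 genes was not tested.

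Females and males of the same exposure were compared in 1 fit of all 30 libraries. All 8 genes were higher in females after 2,4-BPS, BPSIP and BPS (23.9% and 23.5%, 26.1% and 25.1%, and 19.4% and 20.1% of all genes were higher and lower). After E2 7 were higher (17.3% and 17.3%) and Cyp2a12 was slightly lower in females (−0.14 ± 0.05, adjusted p = 0.0368). That last call was lost without replicate 1 or 3 of the females (0.0753 and 0.0749) or replicate 2 of the males (0.147). Cyp2b13 passed the filter through other libraries than exposed males, so these counts are a description too. In the 12 exposed male libraries alone the filter kept the other 7 genes. After BPS, Cyp2b9 was 801 times (95% counting interval 629.6 to 1036) and Cyp2a4 942 times (795 to 1126) as high in females as in males. For Cyp2b13 after E2, with 3 counts in males, the ratio was 4132 (1414 to 20040.2). The sex difference of Cyp2a5 was 1.24 ± 0.06 after 2,4-BPS, 3.88 ± 0.07 after BPS, 4.00 ± 0.07 after BPSIP and 4.81 ± 0.07 after E2. That of Cyp2a12 lay between −0.14 and 1.35 and that of Cyp2b10 between 1.37 and 2.58. Between female controls and the libraries labelled male control, 6 genes were higher and Cyp2a12 lower in females (14.6% and 15.6%), with 1.53 ± 0.10 for Cyp2b9 and 3.21 ± 0.09 for Cyp2a22. Cyp2g1 was lost there without any 1 of the 6 libraries (0.0539 to 0.089), and Cyp2b13 in the fit of these 2 groups alone (0.0787).

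**Figure D5:**
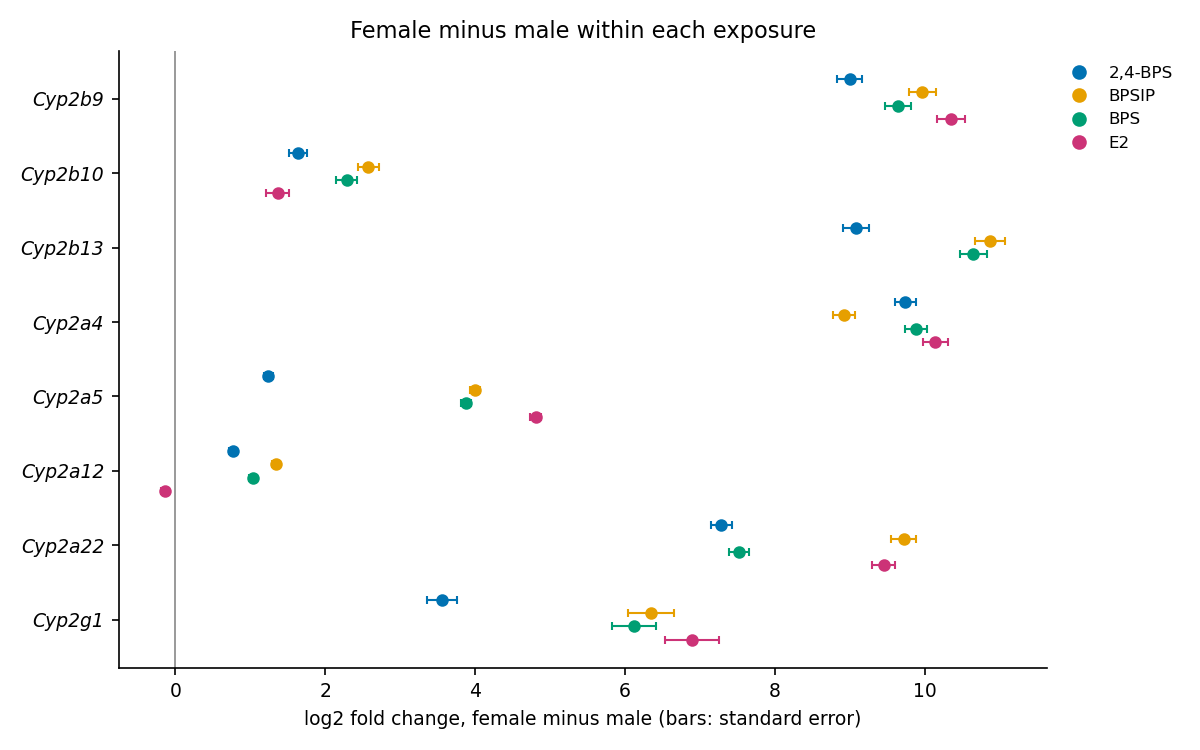
Log2 fold change of females minus males within each exposure, for the 8 genes. Points are estimates of edgeR and bars their standard errors, and Cyp2b13 after E2 is left out because the males had 3 counts. Cyp2b9, Cyp2b13, Cyp2a4 and Cyp2a22 differed by 7.29 or more, and Cyp2a12 by 1.35 or less.

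The interaction test asked whether an exposure stood apart from the other 3 by the same amount in females and males. No control library stood in the contrast, but the fit of all 30 libraries used the controls for filter, scaling and spread. The interaction test called 19 of 32 tests of the 8 genes. For 2,4-BPS none was higher and 6 were lower, females minus males, with Cyp2b13, which passed the filter through other libraries than exposed males, among the 6 (14.3% and 13.7% of all genes), for BPSIP 4 and 1 (21.8% and 20.0%), for BPS 3 and 1 (14.5% and 14.8%), and for E2 2 and 2 (14.7% and 15.7%). Cyp2a5, Cyp2a22 and Cyp2b10 were called for each of the 4 exposures. For 2,4-BPS the difference of Cyp2a5 was −2.99 ± 0.07 (adjusted p = 2.17e-37), so its excess over the other exposures was larger in males. For Cyp2a12 the interaction of 2,4-BPS was 0.02 ± 0.06 (adjusted p = 0.827).

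The regulators of the cluster were taken as a list of 21 genes. As background, the shares of all genes that were higher and lower in females were 10.9% and 8.42% for 2,4-BPS, 19.4% and 19.2% for BPSIP, 9.32% and 7.50% for BPS and 10.4% and 10.6% for E2. Against female control the regulators had 10 higher and none lower after 2,4-BPS, 4 and 6 after BPSIP, 8 and 1 after BPS, and 5 and 3 after E2. The median log2 fold changes of the list were 0.16, −0.03, 0.12 and 0.05, beside medians between −0.01 and 0.00 over all genes. Nr1i3, the gene of CAR, stood at 248.8 ± 5.96 CPM in control females and at 162 ± 5.18 CPM after BPSIP (−0.62 ± 0.06, adjusted p = 1.37e-11), and had 248 ± 16.6 CPM after 2,4-BPS (adjusted p = 0.979). Nr1i2, the gene of PXR, rose after 2,4-BPS from 92.3 ± 1.42 to 143 ± 6.23 CPM (0.64 ± 0.06, adjusted p = 2.49e-11) and fell after BPSIP (−0.40 ± 0.06, adjusted p = 3.27e-07). Foxa2, a liver forkhead factor, rose after 2,4-BPS, BPS and E2 (0.80 ± 0.08, 0.56 ± 0.08 and 0.75 ± 0.08). Hnf4a, a hepatocyte nuclear receptor, rose after 2,4-BPS and BPS (0.46 ± 0.05 and 0.58 ± 0.05), and Onecut1, another liver factor, rose after BPS (1.39 ± 0.16). Ppara, the receptor for fatty acids, fell after BPSIP and E2 (−0.74 ± 0.07 and −0.55 ± 0.07), the coactivator gene Ppargc1a fell after BPSIP (−1.24 ± 0.12), and the repressor gene Nr0b2 rose after E2 (0.85 ± 0.09). Esr1, the gene of oestrogen receptor alpha, rose after 2,4-BPS from 21.1 ± 2.14 to 55.3 ± 3.93 CPM (1.40 ± 0.13, adjusted p = 2.54e-07).

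Of 38 other targets of CAR and PXR, 37 were tested. In females the list had 11 higher and 13 lower after 2,4-BPS, 10 and 15 after BPSIP, 6 and 11 after BPS, and 10 and 15 after E2, with medians of −0.11, −0.13, 0.03 and −0.12. Calls stood in both directions in each comparison, against 10.9% and 8.42%, 19.4% and 19.2%, 9.32% and 7.50% and 10.4% and 10.6% of all genes higher and lower. Cyp3a13, a P450 of the Cyp3a family, rose after 2,4-BPS (1.35 ± 0.06) and BPS (0.68 ± 0.06), and Tsku rose after BPSIP (1.33 ± 0.06) and BPS (0.90 ± 0.06). After E2 Cyp1a2 fell from 473 ± 5.70 to 196 ± 7.23 CPM (−1.27 ± 0.05), the glutathione transferase gene Gstm3 fell (−1.73 ± 0.09), and the transporter gene Slco1a4 rose (0.94 ± 0.07). The 14 genes of electron donors and heme supply had 4 higher and 3 lower after 2,4-BPS, 5 and 5 after BPSIP, 3 and 3 after BPS, and 2 and 5 after E2, with medians of 0.01, −0.06, 0.00 and −0.10. Por stood at 678 ± 6.62 CPM in control females. It was higher after 2,4-BPS (1053 ± 60.6 CPM, 0.64 ± 0.06) and lower after BPSIP (377 ± 21.1 CPM, −0.85 ± 0.06) and E2 (532 ± 26.0 CPM, −0.36 ± 0.06). Alas1, which starts heme synthesis, rose in all 4 exposed female groups, from 249.4 ± 6.72 CPM to between 415 ± 17.5 after E2 and 782 ± 45.5 CPM after BPS. Cyb5b rose after BPSIP (0.67 ± 0.05), Cyb5r3 fell after E2 (−0.74 ± 0.06), and both encode partners of electron transfer. Of the heme synthesis genes, Alad fell after BPS (−0.45 ± 0.06), Uros fell after 2,4-BPS (−0.49 ± 0.09), and Cpox rose after BPS (0.40 ± 0.05) and E2 (0.51 ± 0.05).

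The clock-controlled PAR bZIP factors, of which Dbp is one, are known activators of Cyp2a4 and Cyp2a5. Of 14 such factors and clock partners, the female comparisons had 5 higher and 3 lower after 2,4-BPS, 3 and 8 after BPSIP, 6 and 7 after BPS, and 3 and 10 after E2, with medians of 0.09, −0.24, −0.04 and −0.80. Over all genes the shares higher and lower were 10.9% and 8.42%, 19.4% and 19.2%, 9.32% and 7.50% and 10.4% and 10.6%. Dbp stood at 105 ± 1.10 CPM in control females, 61.7 ± 2.37 after 2,4-BPS, 50.5 ± 2.72 after BPSIP, 68.0 ± 5.49 after BPS and 10.9 ± 1.11 CPM after E2 (−3.28 ± 0.08, adjusted p = 5.82e-28). It fell in all 4 groups. In exposed males Dbp stood after E2 at 16.4 ± 1.32 CPM, with 33.8 ± 1.62 after 2,4-BPS, 71.6 ± 5.40 after BPS and 99.5 ± 3.59 after BPSIP. The part of Dbp in the levels of Cyp2a4 and Cyp2a5 was not tested. Tef and Bhlhe40 fell in females after E2 (−1.17 ± 0.06 and −1.27 ± 0.06). Nr1d1 fell after 2,4-BPS (−0.73 ± 0.07) and BPSIP (−1.29 ± 0.08), Cry1 rose after 2,4-BPS (0.92 ± 0.12), Arntl rose after BPSIP (1.45 ± 0.14) and BPS (2.02 ± 0.14), and Nfil3 rose after BPS (0.97 ± 0.09). The sources used here do not state the hour of tissue collection.

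Growth hormone signalling and its sex-dependent regulators formed a list of 12 genes, with 5 higher and 1 lower after 2,4-BPS, 3 and 5 after BPSIP, 4 and 2 after BPS, and 2 and 4 after E2 in females and medians of 0.06, −0.03, 0.03 and −0.06. The shares of all genes were again 10.9% and 8.42%, 19.4% and 19.2%, 9.32% and 7.50% and 10.4% and 10.6%. Cux2, a female-specific factor of mouse liver, fell after BPSIP from 42.7 ± 1.64 to 16.6 ± 0.934 CPM (−1.36 ± 0.07, adjusted p = 8.82e-18) and rose after 2,4-BPS (0.44 ± 0.07). Bcl6, a male-biased repressor, fell after E2 from 14.8 ± 0.391 to 6.91 ± 0.139 CPM (−1.10 ± 0.11) and after 2,4-BPS (−0.44 ± 0.10). In exposed males Bcl6 stood at 44.1 ± 1.96 CPM after 2,4-BPS and at 6.96 ± 0.786 CPM after BPSIP. In females the 25 female-biased genes had 8 higher and 5 lower after 2,4-BPS, 1 and 19 after BPSIP, 8 and 4 after BPS, and 7 and 12 after E2. The nearby gene Cyp2f2 was higher in females after BPS (1138 ± 72.2 against 841 ± 12.4 CPM, 0.45 ± 0.06) and was not called after the other 3 exposures.

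In exposed males each group was set against the mean of the other 3, where 13.5% and 12.3% of all genes were higher and lower after 2,4-BPS, 15.9% and 15.4% after BPSIP, 16.9% and 18.9% after BPS and 17.3% and 14.2% after E2. The regulators had 3 higher and 11 lower after 2,4-BPS, 10 and 1 after BPSIP, 2 and 10 after BPS, and 10 and 4 after E2, with medians of −0.18, 0.13, −0.16 and 0.11 (over all genes 0.00, 0.00, 0.00, 0.02). The targets of CAR and PXR had 11 higher and 12 lower after 2,4-BPS, 18 and 8 after BPSIP, 14 and 14 after BPS, and 8 and 15 after E2, and the electron donors and heme supply 6 higher and 4 lower after 2,4-BPS, 4 and 4 after BPSIP, 5 and 1 after BPS, and 0 and 7 after E2. Nr1i3 stood at 129 ± 11.1 CPM after 2,4-BPS and at 245 ± 15.9 CPM after BPSIP (0.83 ± 0.04). Por was also highest after BPSIP, at 721 ± 18.1 CPM against 420.1 ± 48.9 after 2,4-BPS, 468 ± 10.5 after BPS and 384 ± 18.8 after E2. Nr1i2 lay between 77.6 CPM after 2,4-BPS and 94.6 CPM after BPSIP.

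Markers of other cells moved with some groups. The shares of all genes higher and lower in females were 10.9% and 8.42% for 2,4-BPS and 19.4% and 19.2% for BPSIP. They were 9.32% and 7.50% for BPS and 10.4% and 10.6% for E2. In males against the mean of the other 3 they were 13.5% and 12.3% for 2,4-BPS and 17.3% and 14.2% for E2. Of 10 Kupffer cell and macrophage markers, 10 were higher in females after 2,4-BPS and 9 after BPSIP, with summed levels of 1759 to 1852 and 1929.8 to 2144 CPM against 1235 to 1292 CPM in controls. After E2 6 of 10 were lower, with a sum of 1119 to 1160.1 CPM. Of 6 skeletal muscle markers, 3 were higher after 2,4-BPS in females, with a sum of 6.39 to 36.8 against 2.66 to 5.69 CPM in controls, and 4 in males exposed to 2,4-BPS against the mean of the other 3 (11.3 to 26.0 CPM). Of 7 neutrophil markers 6 were tested in females. There, 4 were higher after BPSIP, and 4, 5 and 4 were lower after 2,4-BPS, BPS and E2. In males exposed to E2 6 of 6 were higher than in the mean of the other 3, with a sum of 34.8 to 39.3 CPM. Hepatocyte markers summed to 143371 to 160404 CPM after 2,4-BPS, 117250.1 to 132938 after BPSIP, 132453 to 148882 after BPS and 145871 to 153387 after E2, beside 127203 to 131951 CPM in female controls. In females exposed to BPSIP the 15 pericentral hepatocyte genes summed to 8457 to 9074 CPM against 11949 to 12062 in controls (4 higher and 5 lower), and the 8 sinusoidal endothelial markers to 354 to 374 against 470.2 to 482 CPM (1 higher and 6 lower). The sum of the 13 periportal hepatocyte genes was lower there too, at 9387 to 9814 against 10902 to 11076 CPM in female controls. How many of these genes were called is not given here. They summed to 13131 to 13844 CPM after 2,4-BPS, 12374 to 12967 after BPS and 11764 to 12114 after E2. Of the Kupffer cell, muscle and neutrophil markers, 1 was at 0 in a whole group. Ly6g, a defining neutrophil marker, was at 0 in all libraries labelled male control and of males exposed to 2,4-BPS or BPSIP. The part of these markers in the changes of the 8 genes was not tested.

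For 7 of the 8 genes, the 2 genes with the most similar levels were named by Pearson's r of log2 CPM over the 15 female libraries, as a description. For Cyp2a5 these were Serpina6 (0.994) and Havcr1 (0.987), for Cyp2a4 Ceacam1 (0.988) and Acsm1 (0.984), and for Cyp2a12 Saa4 (0.988) and Lifr (0.987). Serpina6, which encodes the corticosteroid carrier of plasma, had mean levels of 585, 605, 414, 554 and 156 CPM in control, 2,4-BPS, BPSIP, BPS and E2, in that order, and was lowest after E2 like Cyp2a5. For Cyp2a22 they were Vldlr (0.951) and Zfpm1 (0.9498), for Cyp2g1 Gdf2 (0.938) and Uck1 (0.932), for Cyp2b13 Tecr (0.938) and Atg5 (0.912), and for Cyp2b9 Camk1d (0.862) and Tmem135 (0.859). Over the 12 exposed male libraries other genes stood first. Cyp2a5 was most like the heat shock genes Hsp90ab1 (0.986) and Hspa1a (0.983), Cyp2a12 most like Creld2 (0.985) and Dnajb2 (0.984), Cyp2b10 most like Aldh9a1 (0.973) and Gamt (0.964), and Cyp2a4 most like Mrpl14 (0.952) and Rnaseh2c (0.945). Hspa1a had 45.1 CPM after 2,4-BPS, 17.6 after BPS, 15.5 after BPSIP and 4.70 after E2 in males, the order of Cyp2a5. The libraries of a group share their exposure, so these values rest on 5 groups in females and 4 in males.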

How the data were processed

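RNA of 30 livers was sequenced, and the authors deposited counts per gene and FPKM over the same 17990 gene symbols. The submitters' processing notes name HISAT2, HTSeq, DESeq2 and R 3.2.0. Genome build, annotation, strand setting and the other versions: not given in the sources used here. Each deposited FPKM value was the gene's count over the library total and 1 fixed length (largest relative deviation 1.77e-07 at 10 counts or more). All 30 columns were matched to samples by title and 0 columns were left unread.

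The count tests used edgeR 4.0.16 (R 4.3.3) after filterByExpr and TMM scaling (factors 0.939 to 1.12), by a robust quasi-likelihood fit, which was first tested on simulated data. Each sex had its own fit of 15 libraries (13874 genes in females, 13474 in males), and all 30 libraries (14131 genes) served for comparisons between sexes and for CPM. Standard errors were taken from the F statistic, and 95% intervals of log2 differences from them. Benjamini-Hochberg adjustment covered all tested genes, with 0.05 as the threshold. In the 12 exposed male libraries alone the filter kept 7 of the 8 genes, all but Cyp2b13.

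The 8 genes, the gene lists and the tests were chosen with earlier results of these data known. The text names all 8 genes, the 3 genes of smallest p per list and female exposure for regulators, electron donors, targets and clock factors, a fixed panel (Nr1i3, Nr1i2, Por, Cux2, Bcl6, Esr1, Dbp, A1bg and the Y-linked genes), and per gene the 2 most similar genes with a mean of at least 1 CPM (log2 CPM, prior count 2). The genes most similar to Cyp2b10 in females are not reported here. Cyp2f2, Hspa1a, Serpina6 and Ly6g were singled out after their values were seen. As alternatives, DESeq2 1.42.0 replaced edgeR, RLE factors replaced TMM, genes were left unfiltered, and replicate numbers entered as a block. Further alternatives left out single libraries, fitted other sets of libraries, required a minimum log2 fold change of 1 and adjusted over 6 pairs. Look-alike rows were summed for Cyp2a4 with Cyp2a5 and for Cyp2b9, Cyp2b13 and Cyp2b10, and not for Cyp2a12 with Cyp2a22.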

Additional observations from a re-analysis of the deposited data

Results flagged for a closer look

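In the interaction test of edgeR, the distance of an exposure from the mean of the other 3 exposures differed between females and males for the following results. Values are log2 differences, females minus males, so a negative value says that the exposure stood higher, relative to the other 3, in males than in females. For 2,4-BPS they were −2.99 for Cyp2a5, −2.90 for Cyp2g1, −2.05 for Cyp2b13, −1.61 for Cyp2a22, −0.99 for Cyp2b9 and −0.44 for Cyp2b10. For BPSIP they were 1.63 for Cyp2a22, −0.997 for Cyp2a4, 0.81 for Cyp2b10, 0.79 for Cyp2a12 and 0.69 for Cyp2a5. For BPS they were −1.29 for Cyp2a22, 0.53 for Cyp2a5, 0.43 for Cyp2b10 and 0.38 for Cyp2a12. For E2 they were 1.76 for Cyp2a5, 1.27 for Cyp2a22, −1.19 for Cyp2a12 and −0.80 for Cyp2b10.

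Behind the value of Cyp2a12 for E2 stood levels of 143 ± 6.88 CPM in females and 157 ± 8.54 CPM in males after E2, with 662 ± 31.2 and 387 ± 29.3 CPM after 2,4-BPS. The values of Cyp2b9, Cyp2b13 and Cyp2a22 rest on at most 98 counts per exposed male group. Cyp2g1 had 224, 16, 19 and 7 counts in males after 2,4-BPS, BPSIP, BPS and E2, and Cyp2a4 had 184, 124, 133 and 41. Some calls were lost without single libraries. For 2,4-BPS, Cyp2b9 was lost without replicate 1 or 2 of the 2,4-BPS males (adjusted p = 0.174 and 0.0714), and Cyp2b10 without replicate 3 of the 2,4-BPS females or replicate 1 of the 2,4-BPS males (0.0625 and 0.0692). Cyp2a22 was lost for BPS without replicate 2 of the BPS males (0.117) and for E2 without replicate 1 of the E2 males (0.0511). Cyp2b10 was lost for BPS without replicate 2 or 3 of the BPS females, any replicate of the BPS males, replicate 1 of the BPSIP males or replicate 1 of the E2 males (0.0509 to 0.116).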

How the results depend on the processing

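With a minimum log2 fold change of 1, called tests of the 8 genes went from 21 to 4 for female exposures against control, from 37 to 13 for pairs of exposures in females, from 27 to 13 for pairs in males, from 17 to 5 for each male exposure against the other 3 and from 19 to 4 for the interaction. With the rows of Cyp2a4 and Cyp2a5, and of Cyp2b9, Cyp2b13 and Cyp2b10, summed, fewer features were tested. Calls were then 24 of 30 for pairs in females in place of 37 of 48, and 25 of 25 between the sexes in place of 39 of 40. For exposed males against the libraries labelled male control they were 20 of 20 in place of 32 of 32. The other families of tests are not given here with summed rows. Leaving out 1 library gave 19 to 22, 35 to 38, 32 in each case, 25 to 29, 16 to 21, 38 to 39 and 17 to 21 calls in the 7 families of tests. All these counts describe the 8 genes only, and shares of all genes at these settings are not given here. Of 4251 single values under all alternatives except the summed rows, 4036 kept their side of the threshold, 164 lost the call, 51 gained it and 0 reversed; 53 uncalled values changed sign. Deviations from the group mean correlated between same-numbered libraries of different groups from −0.137 to 0.234 (median −0.0158, 7 of 135 over 0.1). Between libraries of other numbers they ran from −0.216 to 0.158 (median 0.0083, 12 of 270 over 0.1). These correlations over all genes showed no general pairing by number, and cannot show one that affects few genes. With the replicate number as a block, 264 of 264 tests kept their side of the threshold, with 21 calls against control in females as before. Depth limits Cyp2b9, Cyp2b13, Cyp2a4, Cyp2a22 and Cyp2g1 in exposed males.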
